A study of Mus musculus with 7 samples.

Results

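The Dlk1-Meg3 locus is an imprinted domain of mouse chromosome 12, and 14 of the 58528 anti-Six4 peaks of differentiating C2C12 cells had their midpoint in it. The locus was taken as the 440 kb window from 110660000 to 111100000 of chromosome 12 in mm9, which was set to hold Dlk1, Meg3, Rtl1, Rian and Mirg. The window is set by position alone. The number, spacing, width and place in the list of its peaks are no part of its rule. It was, however, chosen with earlier results of these data known. The peaks come from chromatin immunoprecipitation followed by sequencing (ChIP-seq), in which DNA cross-linked to a protein is recovered with an antibody. C2C12 is a mouse myoblast line that fuses into myotubes when serum is lowered. The library analysed here was made with anti-Six4 from the shNS line, the stable control hairpin line of the study, after 24 h in differentiation medium. It is 1 of 7 libraries described, each the only one of its kind; the other 6 (anti-Six4 after Six4 knockdown by the shSix4 hairpin, anti-Flag with and without Flag-Six4, rabbit IgG, and input DNA of the parental and shNS lines) were not analysed here. There is therefore no replicate and no control value for any peak, and whether a peak depends on Six4 was not tested.

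Imprinted genes are expressed from 1 parental chromosome. In this domain Dlk1 and Rtl1, both protein-coding, are expressed from the paternal chromosome, and the noncoding RNAs Meg3, Rian and Mirg from the maternal one. The choice is set by a differentially methylated region between Dlk1 and Meg3. Dlk1 encodes a membrane protein with EGF-like repeats, related to the Notch ligand Delta, and Rtl1 derives from a retrotransposon. Both are linked to muscle growth through the callipyge phenotype of sheep. Rian is a host of small nucleolar RNAs, and Mirg of microRNAs. Six4 is a homeodomain protein of the sine oculis family, whose members bind the MEF3 site of muscle promoters. The peak list does not separate the parental chromosomes.

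All 5 genes were found in the RefSeq gene table of GRCm38.p6, in the order Dlk1, Meg3, Rtl1, Rian, Mirg. That table is of another build than the peaks, so it was used for names, order and lengths only, and no peak was assigned to a gene. From the start of Dlk1 to the end of Mirg it gives 297 kb, which is shorter than the window. Dio3, the last imprinted gene of the domain, ends 829 kb from the start of Dlk1 and so lies outside any window of this length that holds Dlk1. Between Dlk1 and Mirg the table lists 77 genes, of which 50 are microRNA genes, 19 small nucleolar RNA genes and 1, Rtl1, protein-coding. Of the microRNA genes, 2 lie between Meg3 and Rtl1, 15 between Rtl1 and Rian, and 33 between Rian and Mirg in the order of starts.

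The bases under the peaks are not shown, since no mm9 sequence was used here. The sequences below, from RefSeq with the GRCm38.p6 build, show instead some microRNAs of the domain and the stretches before annotated gene starts. The microRNAs miR-433 and miR-127 come from the strand opposite Rtl1, miR-370 from the stretch of Rian, and miR-379 and miR-410 from the large group near Mirg. They are written 5′ to 3′ with the seed (bases 2 to 8), which pairs with targets, in capitals.
mmu-miR-433-3p: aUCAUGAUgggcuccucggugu
mmu-miR-127-3p: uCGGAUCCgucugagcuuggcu
mmu-miR-370-3p: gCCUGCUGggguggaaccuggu
mmu-miR-379-5p: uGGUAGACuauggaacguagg
mmu-miR-410-3p: aAUAUAACacagauggccugu
None of these 5 shares its seed with another of the 5. Among the 113 mature microRNAs the table holds from Dlk1 to Dio3 there are 104 distinct seeds. The seed of miR-379-5p is also that of miR-1193-5p.

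Promoter windows were present for 4 of the 5 genes (Dlk1, Meg3, Rian and Mirg), with 5 starts in all because Meg3 has 2. MEF3 letters were looked for at all 5 starts, and some are shown. Printed below are the 250 bases before the start of Dlk1, of the first start of Meg3 and of Mirg, each on the plus strand. The Mirg stretch holds the letters, with t for u, of the mature miR-668-5p, miR-668-3p and miR-485-3p. Its annotated start thus lies among microRNA genes. Capitals mark an E-box, CANNTG, the site of MyoD and other basic helix-loop-helix factors of muscle.
Dlk1: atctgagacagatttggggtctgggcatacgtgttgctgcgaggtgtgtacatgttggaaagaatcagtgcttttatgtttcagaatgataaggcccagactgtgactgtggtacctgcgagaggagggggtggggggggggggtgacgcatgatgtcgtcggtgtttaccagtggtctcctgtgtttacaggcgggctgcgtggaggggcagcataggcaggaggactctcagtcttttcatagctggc
Meg3: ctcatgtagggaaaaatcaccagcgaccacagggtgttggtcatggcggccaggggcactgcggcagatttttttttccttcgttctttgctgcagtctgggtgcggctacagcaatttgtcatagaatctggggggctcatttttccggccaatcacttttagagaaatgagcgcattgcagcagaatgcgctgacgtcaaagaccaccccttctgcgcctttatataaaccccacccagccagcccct
Mirg: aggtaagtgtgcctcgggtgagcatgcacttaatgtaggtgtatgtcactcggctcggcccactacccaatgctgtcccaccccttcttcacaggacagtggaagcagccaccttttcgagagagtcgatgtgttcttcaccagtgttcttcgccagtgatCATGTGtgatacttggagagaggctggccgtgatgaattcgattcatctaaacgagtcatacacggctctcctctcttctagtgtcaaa
Over windows of 300 bases (250 before to 50 after the start) and both strands, none of the 5 member starts held the MEF3 letters TCAGGTT or the longer TCAGGTTTC, which contains them. Of all 32851 promoter windows in the table, 4.07% held the shorter form and 0.429% the longer. An E-box was present once at the second start of Meg3, at Rian and at Mirg, and was not found at Dlk1 or the first start of Meg3. Across all promoter windows 72.3% held an E-box. A match is an exact run of letters, so a near match was not counted. These windows were not compared with the peaks.

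In the window the 14 peaks fell into 4 groups separated by stretches of more than 50 kb without a peak, a length chosen after the positions were seen. The groups held 2, 3, 5 and 4 peaks from the low-coordinate end. The first group spanned 17.1 kb, the second 38.1 kb, the third 57.3 kb and the fourth 26.5 kb. Peaks were thus more numerous in the high-coordinate part of the window: in 5 equal parts of 88.0 kb the counts were 2, 2, 1, 5 and 4.

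The first group held the widest and earliest-listed peak of the locus. Its 2 peaks lay at chr12:110662950-110663264 (315 bp, line 26444 of the list) and at chr12:110679394-110680009 (616 bp, line 19045). They were 16.6 kb apart between midpoints. The second of them stood at 32.5% of the list, counting from the first line, and 85.0% of chromosome 12 peaks were narrower than it. The first stood at 45.2%. These were 2 of the 3 members in the first 50% of the list.

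After the longest empty stretch of the window, 122 kb, came the second group of 3 peaks. They lay at chr12:110801720-110802018 (299 bp, line 36218), chr12:110809463-110809745 (283 bp, line 55139) and chr12:110839620-110839858 (239 bp, line 41233). The first 2 were 7.74 kb apart and the third followed after 30.1 kb. The middle one was the latest-listed peak of the locus, at 94.2% of the list, although its width was close to that of its neighbour at 61.9%.

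A stretch of 105 kb without a peak preceded the third group, the largest, with 5 peaks. These were chr12:110945304-110945496 (193 bp, line 41234), chr12:110962338-110962707 (370 bp, line 54533), chr12:110978507-110978699 (193 bp, line 41235), chr12:110987900-110988448 (549 bp, line 27152) and chr12:111002222-111002578 (357 bp, line 47062). Midpoints within this group were 9.57 to 17.1 kb apart, a fairly even spacing beside the rest of the window. The peak of 549 bp was the second widest of the locus and stood at 46.4% of the list. The peak of 370 bp was next in width and yet stood at 93.2%.

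The fourth group closed the window after an empty stretch of 66.4 kb and held only late-listed peaks. These were chr12:111069011-111069202 (192 bp, line 41236), chr12:111083847-111084045 (199 bp, line 50874), chr12:111094446-111094697 (252 bp, line 51846) and chr12:111095252-111095488 (237 bp, line 47063). The peak of 192 bp was the narrowest of the locus. The last 2 peaks had midpoints 798 bp apart and edges 0.554 kb apart, and they were the only members with a gap of 5 kb or less between them. Their 4 places ran from 70.5% to 88.6% of the list.

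The peaks nearest to the window's edges were as follows, given because the window was cut by position. Distances run from the midpoint of the peak to the edge of the window. The last peak before it lay at chr12:110655777-110656231 (455 bp, line 47061), 3996 bp outside, and the first member was 3106 bp inside. The last member was 4630 bp inside, and the first peak after the window, at chr12:111109491-111109667 (177 bp, line 33972), was 9578 bp outside. No peak crossed an edge.

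**Figure D1:**
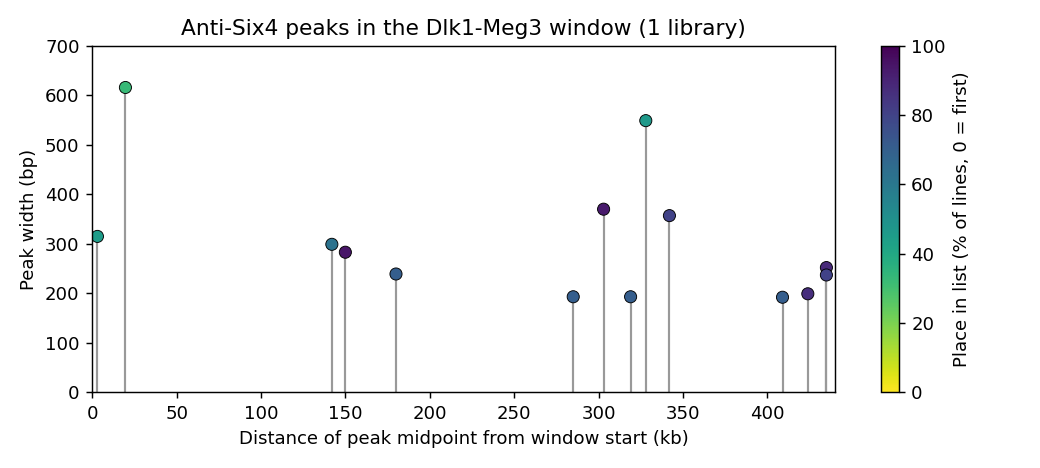
The 14 anti-Six4 peaks of the window, each drawn at its midpoint (distance from the window start in kb) with its width in bp as height and its place in the list (percent of lines) as colour. The 4 groups of 2, 3, 5 and 4 peaks are separated by empty stretches of 122, 105 and 66.4 kb, and no peak has the light colours of the first 30% of the list.

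The locus carried more peaks than most windows of its length on chromosome 12 without being among the densest. Its 14 peaks in 440 kb corresponded to 31.8 per Mb (exact Poisson 95% interval 17.4 to 53.4, counting error only), against 21.2 per Mb for the 2502 peaks of the chromosome over its span of 118 Mb, a value inside that interval. Windows of 440 kb were tiled from the edges of the locus over this span, which gave 267 others. Of these, 183 (68.5%) had fewer peaks, 4 had as many and 80 had more. The median window held 5 peaks, the upper quartile was 16 and the richest window had 45. Windows with no peak numbered 46 and were kept in these figures.

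**Figure D2:**
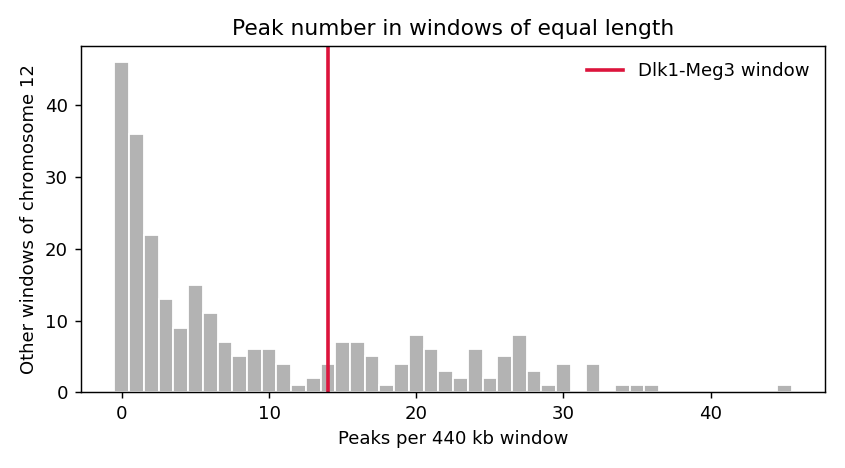
Number of peaks in the 267 other windows of 440 kb on chromosome 12 (bars, count of windows) with the Dlk1-Meg3 window as a line at 14 peaks. Windows with few or no peaks make up the left of the plot, with 183 windows below the locus and 80 above it.

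Peaks covered 0.976% of the locus, more than in 68.5% of the other windows, whose median was 0.374%. Its longest empty stretch, 122 kb, was shorter than that of 71.5% of windows. Both follow in part from the number of peaks. Beside the 21 other windows with 12 to 16 peaks, a comparison chosen after the values were seen, the covered share was low: the median of those windows was 1.18% and 18 of 21 were above the locus. Most of these 21 windows held more peaks than the locus. The longest empty stretch of the locus was near their median, 132 kb.

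Spacing in the locus was close to that of the chromosome. The median distance between successive midpoints was 16.1 kb over 13 intervals (quartiles 10.6 and 30.1), against 14.5 kb over 2501 intervals on chromosome 12 (6.57 and 33.1). The 2 longest intervals, 122 and 106 kb, were exceeded by 175 and 207 of the chromosome's intervals. A neighbour within 10 kb was present for 7 of 14 members (exact binomial 95% interval 23.0 to 77.0%), where the share was 58.6% on chromosome 12 and 57.5% in the whole list. Both of these shares lay inside the interval. Nearness is mutual, however, and most of the 7 members were each other's neighbours. They are therefore not independent, and the interval gives no verdict.

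Widths were also close to those of the chromosome. The median width was 268 bp (lowest 192, highest 616), beside 265 bp for the other 2488 peaks of chromosome 12 and 275 bp for the whole list. Of the 14 members, 7 were at least as wide as the list's median, where the background is 50.1% in the whole list and 46.8% on chromosome 12. None reached 1 kb (exact binomial 95% interval 0 to 23.2%), where 6.41% of all peaks and 6.00% of those of chromosome 12 did. The interval holds the background, and 185 of the 267 other windows, and 11 of the 21 with 12 to 16 peaks, had no such peak either. The widest member, 616 bp, was wider than the widest peak of 92 of the 221 other windows with a peak and narrower than that of 129. In the 21 windows with 12 to 16 peaks, most of them with more peaks than the locus, the widest peak had a median of 972 bp. In 18 of them it was wider than that of the locus.

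The members stood late in the list. Their median place was 70.5% of lines (quartiles 64.0 and 85.3), against 52.1% for the other peaks of chromosome 12 (27.3 and 74.7). In the first 50% of lines there were 3 of 14 members (21.4%, exact binomial 95% interval 4.66 to 50.8%), where the background on chromosome 12 was 48.1%. The interval holds this value near its upper end. It takes the members as independent, although 4 of them stood on successive lines, and it gives no verdict. None was in the first 10% of lines (interval 0 to 23.2%), where 9.63% of chromosome 12 peaks were. What the list is ordered by is not given in the sources used here, so a late line is a place in the list and not a measured signal.

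Among all 221 other windows with a peak the placing was not extreme. The median place of the locus, 70.5%, was later than that of 156 of them and earlier than that of 65 (median of windows 60.8%). Its earliest member stood at 32.5% of the list, and 143 of the 221 windows began earlier and 78 later. Many of these windows have few peaks, and a window with more peaks has more chances of an early one, so windows were also taken by peak number. In the 21 other windows with 12 to 16 peaks the earliest peak stood between 0.128% and 27.5%, with a median of 6.41%, so that all 21 began earlier. The same held for all 84 other windows with at least 14 peaks, whose earliest lines ran from 0.128% to 28.7%. Peaks in the first 50% of lines numbered 3 to 10 in the 21 windows, with a median of 6, and 1 of the 21 had as few as the 3 of the locus. By median place, 1 of the 21 windows, and 3 of the 84, had a later median than 70.5%. Most windows of both sets, 80 of the 84 and the larger part of the 21, held more peaks than the locus. They were thus not fully matched to it in peak number. Both sets of windows were chosen after the values were seen, neighbouring windows are not independent, and no test was made.

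**Figure D3:**
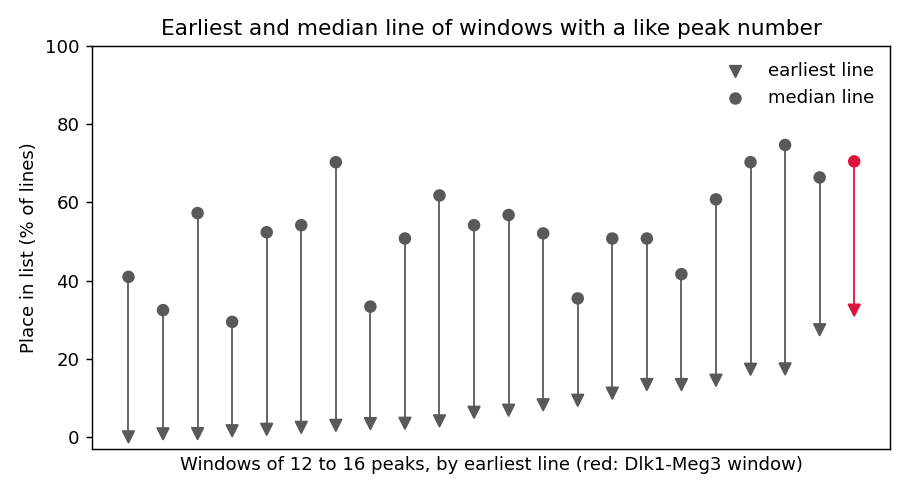
Place in the list (percent of lines) of the earliest peak (triangle) and the median peak (circle) in the 22 windows of chromosome 12 with 12 to 16 peaks, ordered by the earliest. The Dlk1-Meg3 window, in red, is last with an earliest peak at 32.5% and a median at 70.5%.

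Consecutive lines of the list were often in genome order, as a list sorted by a value with ties would be, and this bears on how finely the places can be read. With chromosome names in text order, the list broke into 2016 stretches, and 81.2% of peaks lay in stretches of more than 50 lines. All 14 members lay in such stretches, of 103 to 2963 lines. The longest stretch of the list, lines 40587 to 43549, held 4 members, on the successive lines 41233, 41234, 41235 and 41236. They were peaks of 239, 193, 193 and 192 bp from the second, the third and the fourth group. Lines 47062 and 47063 also held members, the 357 bp peak of the third group and the last peak of the window, and line 47061 held the peak just before the window. Within a stretch the lines follow position. If they are tied, which cannot be checked without a score, these 4 members can be placed only between 69.3% and 74.4% of the list. The 14 members took 10 distinct stretches, and with each at the middle of its stretch the median place was 71.9%.

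On chromosome 12 wide peaks tended to come early. Spearman's rho between line number and width was -0.28 over the 14 members, -0.61 over the other 2488 peaks of chromosome 12 and -0.64 over the whole list, all from 1 library. With 14 peaks in 10 stretches this is a description, and the difference was not tested. Most members, late-listed ones included, were wider than the median of their stretch of lines. Among them were the 370 bp peak at 93.2% (stretch median 207 bp), the 357 bp peak at 80.4% (206 bp) and the 283 bp peak at 94.2% (196 bp). Only the peaks of 193, 193 and 192 bp (212 bp) and of 199 bp (208 bp) were narrower than the median of their stretch.

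**Figure D4:**
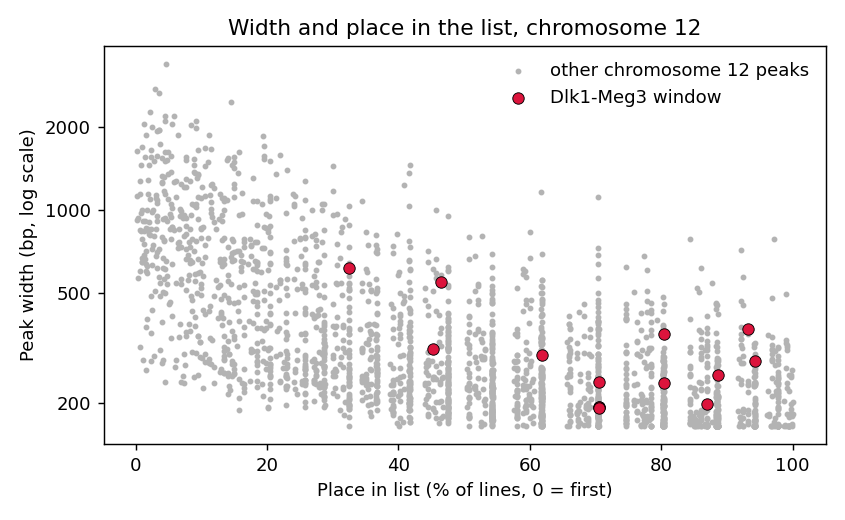
Width (bp, log scale) against place in the list (percent of lines) for the 2502 peaks of chromosome 12, with the 14 members in red. Members lie from 32.5% to 94.2% and from 192 to 616 bp, and the vertical bands are the long stretches of lines in genome order.

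Both adjoining windows had medians near that of the locus. The window before the locus had 8 peaks with a median place of 74.4%, and the window after it had 16 peaks with a median of 66.4%. One window further out on each side, the medians were 36.7% (19 peaks) and 24.3% (28 peaks). Median widths were 294 bp before, 268 bp in the locus and 242 bp after, against 306 and 421 bp in the windows further out. Late medians were not limited to these 3 windows: those 5 to 8 steps before the locus had medians of 75.9%, 99.4%, 88.6% and 74.7%, with 2, 3, 8 and 15 peaks.

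**Figure D5:**
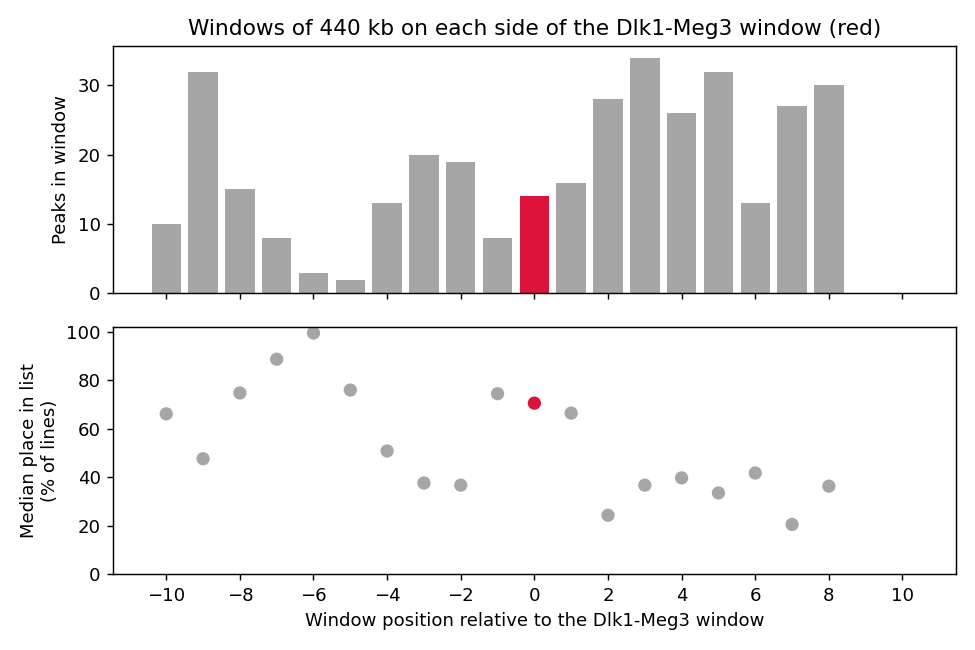
Peaks per 440 kb window (upper panel) and median place in the list in percent of lines (lower panel) for the 10 windows on each side of the Dlk1-Meg3 window, in red. The locus has 14 peaks at a median of 70.5%, between windows of 8 and 16 peaks at 74.4% and 66.4%; windows without a peak have no point in the lower panel.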

How the data were processed

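The file used is a peak list of 1 library (anti-Six4, shNS line, 24 h), deposited by the authors with 3 columns (chromosome, start, end) and no score, height or p-value. The submitters' processing notes name Bowtie, Picard, bedtools, MACS2 version 2.0 and mm9, without roles or settings; no threshold or control library is stated there. Read depth is unknown. Starts, counted from 0 in the file, are printed from 1. A peak belonged to a window by its midpoint. Equal windows were tiled from the locus edges between the first and last peak of chromosome 12; assembly gaps were not excluded. Every peak of the locus was named, as the rule asked for a number this small. Shares have exact Clopper-Pearson 95% intervals. The intervals take peaks as independent, which neighbouring peaks of 1 library may not be, so they give no verdict on a difference. No test was made, since peaks and windows of 1 library are not replicates. Counting was tested on simulated data with planted peaks, which checks the code for the peak number and none of the comparisons. The members and measures were chosen with earlier results of these data known. Window edges rest on the stated mm9 positions, which were not checked against an mm9 annotation. Values were computed in Python 3.11.15 (pandas 2.3.3, numpy 2.4.6), intervals with scipy 1.17.1 and plots with matplotlib 3.10.9.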

Additional observations from a re-analysis of the deposited data

How the results depend on the processing

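Each of the 7 values of the locus was recomputed, 39 times in all, and 30 stayed within set limits: 1.5 times for peak number, covered share and longest empty stretch, 1 SD over members for medians, and the binomial interval for the share of windows with fewer peaks. None has a direction that could reverse. The first 50% of lines were also taken alone, a cut by place in the list since no score is given. There the locus held 3 peaks, with a covered share of 0.336% and a median width of 549 bp. The median place, 45.2%, had to fall below 50% by this cut. The median spacing was 163 kb and the longest empty stretch 308 kb. Fewer peaks were found in 59.0% of windows, against 68.3% of all 268 windows, the locus included, for the whole list. Leaving out empty windows gave 61.7%. Narrowing the window by 50 kb on each side, an alternative added after the data had been seen like the use of tied lines, left 8 peaks; widening it gave 17. Merging peaks under 500 bp apart and counting any overlap left the number at 14. No paired analysis was possible because each group has 1 library and no test was made. The depth of the library is not known, which leaves the number of uncalled weaker sites in the locus unstated.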
